A study of Homo sapiens with 4 samples.

Results

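The genes described here encode pre-mRNA splicing factors and RBM proteins. They were taken from the YTHDF1 RIP-seq peaks of SNU638, a human cell line established from gastric cancer, as all protein-coding genes whose symbol begins with HNRNP, or with SRSF, SF3A, SF3B, PRPF or RBM followed by a digit. RBM15 and RBM15B, subunits of the m6A writer complex, were left out. The rule found 55 genes among the 6679 protein-coding genes and the 7550 genes of all classes that had a peak. Of these, 17 were HNRNP genes, 9 SRSF genes, 6 SF3A or SF3B genes, 7 PRPF genes and 16 RBM genes.

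RIP-seq compares the RNA pulled down with a protein to the RNA of the lysate it came from. There were 2 groups of 2 biological replicates, IP-YTHDF1 and input. Cells of both groups overexpressed YTHDF1, were kept without serum for 24 h and were then given IFN-γ at 10 ng/ml for another 24 h. Immunoprecipitation used an antibody to the FLAG tag per the methods, so the bound RNA is that of overexpressed YTHDF1, and cells without IFN-γ, without overexpression or without the tag were not analysed here. The authors' table gives, for each listed peak, a 50 bp window and 1 set of values (signal value, significance and rank), with none for a single library. A legend of the study describes its protein-coding peaks as a union over replicates. Whether the table is that union is not stated in it, so a listed window may rest on 1 replicate. The study counts fewer genes with enriched mRNAs than the 6679 protein-coding genes with a peak here, so the gene sets are not the same. The signal value is a score of unstated scale that is larger for stronger peaks, the listed windows reach up to a q-value of 0.05, and neither the depth nor the spread between replicates can be given. As a check of the cell type, 4 of 5 epithelial markers had a peak (EPCAM, KRT8, KRT18 and KRT19, but not CDH1) and 0 of 4 leukocyte markers did, although a peak shows binding and not the expression level.

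Splicing removes introns from nuclear transcripts. The SF3A and SF3B proteins belong to the U2 snRNP, which recognises the branch point, and the PRPF proteins act largely in the tri-snRNP and the later spliceosome. SR proteins (SRSF genes) and hnRNP proteins bind the pre-mRNA and favour or repress the use of exons, and many genes of both groups regulate their own transcripts through alternative exons. RBM is a naming series for proteins with RNA recognition motifs, with roles from splicing to mRNA stability. YTHDF1 is a cytoplasmic reader of m6A, a modification that lies mostly within the sequence pattern DRACH (A, G or T, then A or G, then A, C, and A, C or T).

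Letters could be read for the few windows that lie wholly within the RefSeq promoter table of GRCh38.p14, which covers the annotated starts of genes, alternative starts and those of neighbouring genes included. This was so for 11 listed windows of 9 member genes, and the 3 in RBM47 were read from the start of its antisense gene RBM47-AS1. DRACH occurred on the transcript strand in 4 of the 11 (36.4%, Wilson 95% interval 15.2% to 64.6%), next to 39.2% of the 885 windows of all protein-coding genes that could be read in the same way. The stricter pattern GGACT, one of the forms of DRACH, occurred in 3 of the 11 windows, next to 5.54% of the 885 windows. With 11 windows these shares describe single sequences and not the gene group. The 3 windows with GGACT are printed as 30-base stretches on the transcript strand, with the GGACT in capitals, because they are the only readable member windows that hold this form of the motif. The window of SF3A3 holds 2 matches, of which only the GGACT lies wholly within the printed stretch, and is centred upstream of the RefSeq start of its gene.

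SF3A3, minus strand, chr1:37990027-37990056: tgcgcaacgtggGGACTcaggcgcgctggg
RBM14-RBM4, plus strand, chr11:66616629-66616658: cattcctgaggaGGACTgccggtcgttcgg
SF3A1, minus strand, chr22:30356802-30356831: cgacaccgaggcGGACTggcagccctgagc

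The signal values of these windows were 2.22 in SF3A3, 1.62 in RBM14-RBM4 and 1.48 in SF3A1. The strongest windows that could be read, in PRPF4 (3.08), RBM23 (2.55) and SRSF9 (2.51), held no DRACH match. A match is a description of the letters and not a mapped m6A site, and a window without one may lie next to a site outside its 50 bp.

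The first question was how much of each family had a YTHDF1 peak. RefSeq lists 96 protein-coding genes that follow the naming rule, and 54 of them had a peak (56.2%, Wilson interval 46.3% to 65.7%), while 31.8% of all 20056 RefSeq protein-coding genes did. The remaining gene of the 55, HNRNPUL2-BSCL2, is not a protein-coding entry of that annotation. The background contains genes that SNU638 cells may not express, and the part of expression in this difference was not tested. With the limit on q set to 0.001, 38 of the 96 genes kept a peak (39.6%), next to 21.2% of all RefSeq protein-coding genes.

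Among the families, the share was 75% for SRSF (9 of 12), 66.7% for SF3A and SF3B (6 of 9), 61.5% for HNRNP (16 of 26), 58.3% for PRPF (7 of 12) and 43.2% for RBM (16 of 37). The Wilson intervals of the families overlapped, from 46.8% to 91.1% for SRSF and from 28.7% to 59.1% for RBM, so the order of the families is not resolved by these counts. The genes without a listed peak were in part tissue-restricted or duplicated genes, such as HNRNPCL1 to HNRNPCL4, RBM20, RBM24 and RBM46. Others were HNRNPD, HNRNPF, HNRNPM and HNRNPR, SRSF4 and SRSF10, SF3A2, SF3B5 and SF3B6, PRPF3 and PRPF18, and RBM25 and RBM3. Whether these transcripts were unbound or too scarce cannot be told apart in the table.

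**Figure D1:**
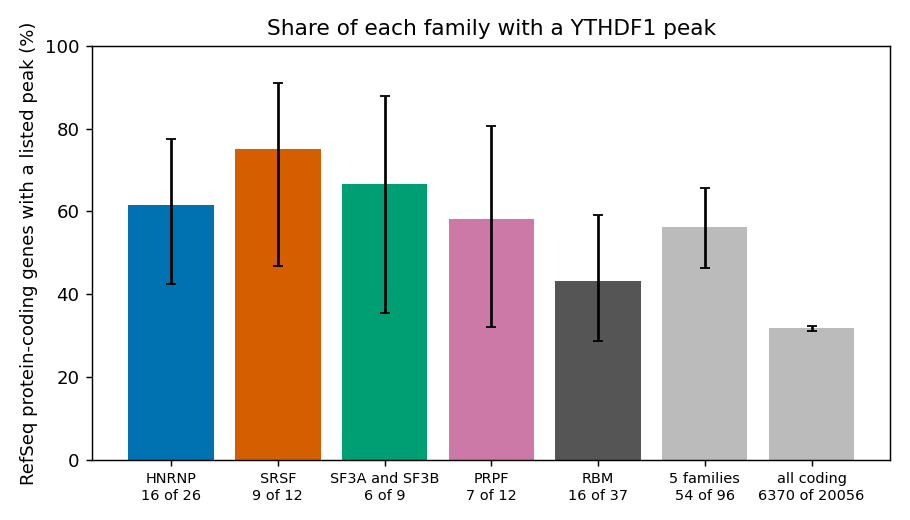
Share of RefSeq protein-coding genes with at least 1 listed YTHDF1 peak, in percent, for each family, for the 5 families together and for all protein-coding genes; bars are shares and lines are Wilson 95% intervals, with the counts under each bar. The 5 families together stood at 56.2% and all protein-coding genes at 31.8%, and the intervals of the single families overlap each other.

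The signal values of the members were near those of all protein-coding genes with a peak, with a slightly lower median. The members held 184 of the 24754 windows in protein-coding genes (0.743%), which formed 124 regions when touching windows were joined. The strongest window per gene had a median signal value of 2.14 over the 55 members (25th to 75th percentile 1.95 to 2.33), next to 2.23 over all protein-coding genes with a peak (1.94 to 2.56). By their strongest window, 11 members lay above the 75th percentile of all these genes and 13 lay below the 25th. The number of listed windows per gene had a median of 3 in the members and of 3 in all protein-coding genes, and a single window was listed for 16 members (29.1%) and for 29% of all protein-coding genes.

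**Figure D2:**
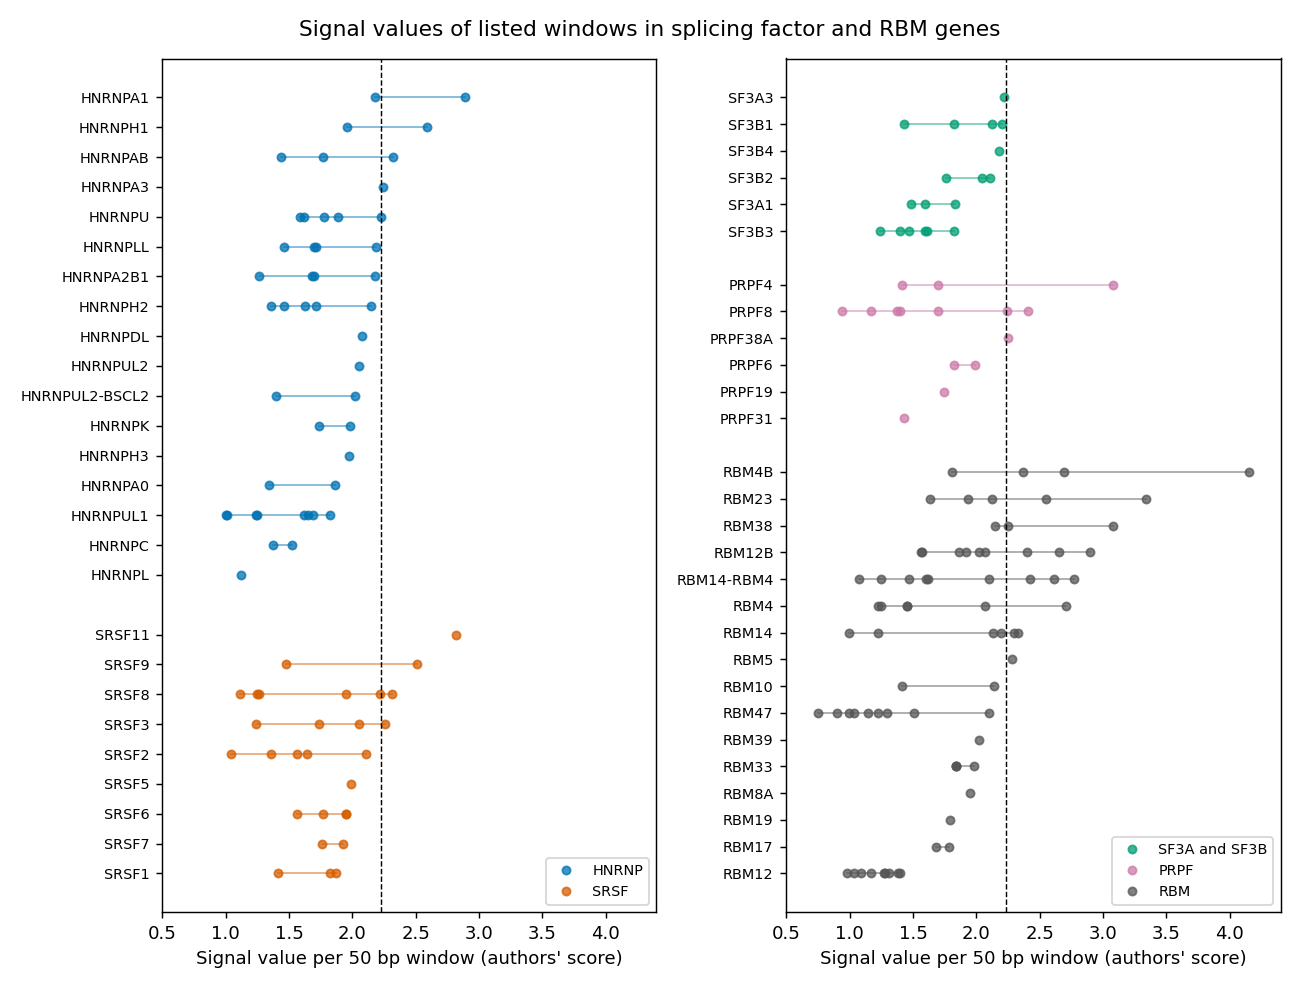
Signal value of every listed 50 bp window (points) in 54 of the 55 genes, grouped by family and ordered by the strongest window, with a line from the weakest to the strongest; the dashed line marks 2.23, the median of the strongest window over all protein-coding genes with a peak. RBM4B reached 4.15, and HNRNPL, with 1 window at 1.12, had the lowest strongest window.

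The hnRNP proteins coat nascent transcripts. The strongest window of the family was in HNRNPA1 (ENSG00000135486), which encodes an abundant splicing repressor. HNRNPA1 had 2 adjacent windows on the plus strand of chromosome 12, from 54281794 to 54281843 with a signal value of 2.18 and from 54281844 to 54281893 with 2.89. For the second the listed q was 0, and it stood above the strongest window of 88.4% of the protein-coding genes with a peak. Both windows overlapped a listed window of the lncRNA gene AC078778.1 on the same strand, with a signal value of 3.28, so the reads of the pair cannot be assigned to 1 of them from this table. HNRNPH1, a regulator that binds G-rich sequences, had 2 adjacent windows with signal values of 1.96 and 2.59, about 13.4 kb from the gene start. In HNRNPAB, 3 adjacent windows near the start had 2.32, 1.77 and 1.44 in the order of transcription.

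Several hnRNP genes had more windows at lower values. HNRNPUL1, whose protein takes part in transcription and the DNA damage response, had the most listed windows of the family. Its 8 windows ran from 1.00 to 1.82, and 6 of them lay between 1714 and 2164 bp from the gene start. HNRNPU, a large nuclear matrix protein, had 5 windows within 630 bp of its start. In the order of transcription their signal values were 1.89, 1.78, 2.23, 1.59 and 1.62, with the highest in the middle. HNRNPH2 had 1 window of 2.15 at its start and 4 of 1.36 to 1.71 at 3.83 to 4.08 kb, and 3 of the 5 overlapped windows of the readthrough gene RPL36A-HNRNPH2.

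Some hnRNP proteins are themselves linked to m6A: HNRNPA2B1 was described as a nuclear reader, and HNRNPC binds sites that m6A exposes. HNRNPA2B1 had 4 separate windows. Their signal values were 1.26 close to the start, 2.18 and 1.70 about 3 kb inside the gene, and 1.68 at 26178008 to 26178057 on chromosome 7. This last window lies 22.7 kb from the start of a RefSeq interval of 10.8 kb, and so outside it. HNRNPC had 2 windows with 1.37 and 1.52, and its strongest window exceeded that of only 4.37% of the protein-coding genes with a peak. HNRNPK, a regulator of transcription and translation, had 1.74 at its start and 1.98 in its 3′ part. HNRNPL, a splicing regulator of CA-rich sequences, had 1 window of 1.12, the weakest maximum of all members.

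The SR proteins promote exon use, and all but SRSF4, SRSF10 and SRSF12 had a peak. The strongest window was the single one of SRSF11 (ENSG00000116754, chromosome 1, 70221733 to 70221782), whose signal value was 2.82 (q = 4.48e-08). SRSF9 had 2.51 at 100 bp from its start and 1.48 at 200 bp. SRSF8 had 6 windows with 1.95, 2.22, 2.31, 1.26, 1.11 and 1.25 in the order of transcription. The stronger ones in SRSF8 were the 3 nearest to the start.

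SRSF3, a small SR protein that regulates the splicing of its own transcript, had windows at 2 places. At 66 bp from the start the signal value was 1.74. At 2.47 to 2.57 kb, 3 adjacent windows on chromosome 6 from 36596804 to 36596953 had 1.24, 2.26 and 2.05, and q was 9.33e-14 in the middle one. The number of windows tested in a gene was estimated from the p- and q-values of its listed windows, taking q as adjusted within the gene. In SRSF3 this number was 14. The 4 listed windows of SRSF3 were thus 28.6% of those tested, the largest such share among the members.

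SRSF2 (SC35), an SR protein that is mutated in some leukaemias, had 5 of 23 tested windows listed, with 1.56, 1.64, 2.11, 1.04 and 1.36 in the order of transcription. SRSF7 had 2 of 13, with 1.76 at its start and 1.93 at 3.12 kb. SRSF1, the founding member of the family, had 1.87 near its start and 1.82 and 1.41 about 2.2 kb away, the lowest maximum of the family. Windows of SRSF1 and SRSF6 overlapped listed windows of AC015813.2 and AL031681.2 on the same strand, so their values are shared with those genes. Over the 55 members the listed share of tested windows had a median of 9.09%, next to 8.93% over all protein-coding genes with such a count.

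The SF3A and SF3B subunits lay in a narrow range. The strongest window per gene was 2.22 in SF3A3, 2.20 in SF3B1, 2.18 in SF3B4, 2.11 in SF3B2, 1.83 in SF3A1 and 1.82 in SF3B3. No subunit exceeded the median of 2.23 of all protein-coding genes with a peak. SF3B1, which contacts the branch point and is often mutated in blood cancers, had 4 windows on the minus strand of chromosome 2. The values were 1.82 and 2.20 at adjacent windows about 11 kb from the start, 2.12 at 14.0 kb and 1.43 at 25.3 kb. SF3B1 was the only one of the 6 genes with no window within 1 kb of its start. SF3B3 had 6 windows of 1.24 to 1.82, SF3B2 had 3 of 1.76 to 2.11, and SF3A1 had 2 adjacent windows at its start (1.48 and 1.83) and 1 further in (1.59).

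The PRPF family held both strong and weak windows. PRPF4 (ENSG00000136875), a protein of the U4/U6 snRNP, had the strongest, at 3.08 (q = 1.46e-11), 60 bp from its start (chromosome 9, 113275694 to 113275743). The 2 further windows of PRPF4, about 1 kb into the gene, had 1.41 and 1.70.

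PRPF8, the large protein at the catalytic centre of the spliceosome, had 7 of 122 tested windows listed, the most tested among the members. The 2 nearest to its start had 2.24 and 2.41, and the other 5 had 0.94 to 1.70. The weakest maximum of the family was the single window of PRPF31, a tri-snRNP protein whose loss causes retinitis pigmentosa, with 1.43. PRPF38A had 1 window of 2.25, PRPF6 had 2 of 1.82 and 1.99, and PRPF19 had 1 of 1.74.

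The RBM genes spanned the widest range, from 1.40 to 4.15 by the strongest window. RBM4B (ENSG00000173914, minus strand of chromosome 11) held the strongest window of all members. It had 3 adjacent windows from 66676899 to 66677048, with 2.37, 4.15 and 2.69 in the order of transcription, and a weaker one of 1.81 about 500 bp downstream. The window of 4.15 exceeded the strongest window of 99.7% of the protein-coding genes with a peak. RBM4, its neighbour and close paralogue, had 6 windows, of which the strongest had 2.71 at 1.44 kb from its start and the other 5 had 1.22 to 2.07. Both proteins regulate alternative splicing, and as the handling of reads that match both genes is not stated in the sources used here, their values are uncertain.

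RBM23, a splicing regulator related to RBM39, had 5 windows. The strongest lay 9.62 kb inside the gene on chromosome 14 (22909505 to 22909554) at 3.34, with q given as 0, while the window at the start had 2.55 and the others 1.63 to 2.12. RBM38, a p53 target that regulates mRNA stability and splicing, had 3 adjacent windows starting about 100 bp from the gene start, with 3.08, 2.25 and 2.15 in the order of transcription. RBM39 had a single window of 2.02 at 238 bp. RBM10, a splicing factor often mutated in lung cancer, had 2 windows with 2.14 and 1.41, at 62.2% and 89.0% of the way along the gene.

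No gene in the table has more than 9 windows listed, and 4 members reached that number, all of them RBM genes. RBM12B had 6 adjacent windows with 1.56, 2.90, 2.65, 2.40, 2.07 and 2.02 in the order of transcription, and 3 others of 1.57 to 1.92. RBM12 had 9 windows of 0.98 to 1.40, all of which overlapped windows of CPNE1 or AL109827.1 on the same strand. RBM47, an epithelial RNA-binding protein, had 9 windows of 0.75 to 2.10, all in the last 10% of its 208 kb interval. With q again taken as adjusted within the gene, the p- and q-values also give an estimate of how many windows passed. By that count at least 11 windows passed in RBM12B, 13 in RBM14-RBM4 and 23 in RBM47, against 9 listed in each, and 9 in RBM12. Windows are numbered along the chromosome, and 9 is the highest number listed, so for a minus-strand gene such as RBM47 the unlisted windows would lie towards its 5′ end, and its position and maximum are incomplete. For RBM14-RBM4, on the plus strand, they would lie towards the 3′ end, and no listed window of this gene lay in its RBM4 portion.

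The same RNA could be listed under more than 1 member. RBM14, a coactivator with RNA recognition motifs, and the readthrough gene RBM14-RBM4 begin at the same RefSeq position, and their windows lay on grids 6 bp apart. All 6 windows of RBM14 overlapped windows of RBM14-RBM4, and all 9 listed windows of RBM14-RBM4 overlapped windows of RBM14. The values differed between the gene models. At 328 and 322 bp from the start, windows sharing 44 bp had 2.13 in RBM14 and 2.77 in RBM14-RBM4, whereas at 28 and 22 bp they had 2.33 and 1.62. HNRNPUL2 and HNRNPUL2-BSCL2 were closer, with 2.05 and 2.02 in windows 5 bp apart. In all, 37 of the 184 member windows, in 9 members, shared bases with a same-strand window listed for a different gene. The values of these windows are not separate from those of the other gene. Only RBM14 with RBM14-RBM4 and HNRNPUL2 with HNRNPUL2-BSCL2 shared windows with another member, and the rest did so with genes outside the group.

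**Figure D3:**
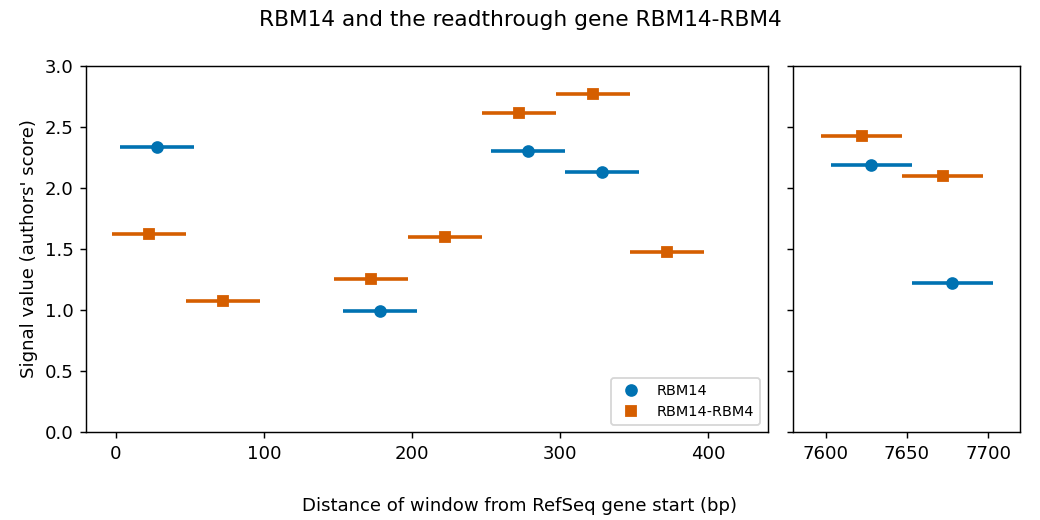
Signal value of each listed window against its distance in bp from the RefSeq start shared by RBM14 (circles) and the readthrough gene RBM14-RBM4 (squares); horizontal bars show the 50 bp width, and the axis is broken between the panels. In the windows 322 and 328 bp from the start the readthrough model has the larger value (2.77 against 2.13), and at the start RBM14 does (2.33 against 1.62).

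Member windows lay mostly towards the 5′ end of the gene. RefSeq intervals could be assigned to 54 members with 182 windows, introns included. The first 10% of the interval held 84 of these windows (46.2%), next to 33.4% for all protein-coding genes, and the last 10% held 14 (7.69%, next to 10.9%). A window within 500 bp of the RefSeq start was listed for 34 of 54 members (63.0%, next to 43.1%), and 0 windows lay within 500 bp of the 3′ end (next to 1.74%). The strongest window of the gene was in the first 10% for 27 members (50%, next to 39.4%). No test of these differences was made. The members are shorter, with a median interval of 16.1 kb against 31.6 kb, and the part of gene length in the shift was not tested.

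By count of windows, the families differed in the share in the first 10%, and SRSF lay below the 33.4% of all protein-coding genes. Each family has only 6 to 16 placed genes. Counted by gene, the strongest window was in the first 10% for 44.4% of SRSF genes, next to 39.4% of all protein-coding genes. For SF3A and SF3B it was 33.3%, the lowest of the families. That share leaves out SF3A3, whose only window is centred just upstream of its start. By distance the order differed. The strongest window lay within 500 bp of the start for 3 of the 6 SF3A and SF3B genes, the highest share of the families. Over all protein-coding genes this share was 30.5%. A window within 500 bp of the start was listed for 66.7% of SRSF genes, next to 43.1%. The first 10% of the gene held 70.0% of the PRPF windows, 59.1% of the HNRNP windows, 40.3% of the RBM windows, 38.9% of the SF3A and SF3B windows and 28.6% of the SRSF windows. SRSF genes are short, and all their windows except that of SRSF11 lay within 3.12 kb of the start. Without the 4 members that have 9 listed windows, the first 10% held 52.7% of the member windows, next to 34.5% for all protein-coding genes without such genes. Exons, coding sequence and untranslated regions were not analysed here, and the RefSeq start may not be the one used in these cells.

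**Figure D4:**
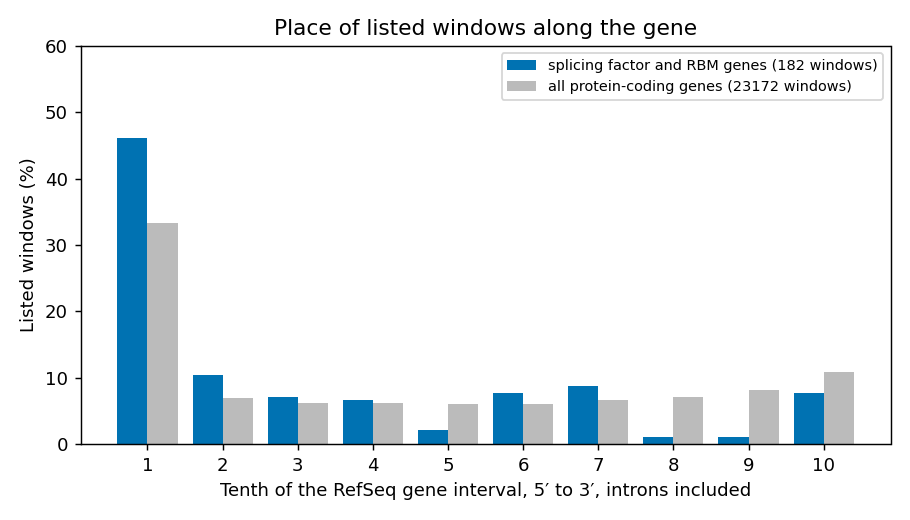
Percent of listed windows in each of the 10 equal parts of the RefSeq gene interval, from 5′ to 3′ with introns included, for the splicing factor and RBM genes (182 windows) and for all protein-coding genes (23172 windows). The first part holds the most in both, at 46.2% and 33.4%.

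Other genes of the splicing pathway were counted from 5 lists that do not overlap the naming rule. Of 109 genes, 57 had a peak (52.3%, Wilson interval 43.0% to 61.4%), next to the 31.8% of all RefSeq protein-coding genes. Further splicing regulators had a peak in 31 of 48 genes, led by MBNL2 (3.01) and KHDRBS1 (2.98), both regulators of alternative exons. The proteins of the tri-snRNP and of the later steps had a peak in 13 of 23, led by CRNKL1 (3.18) and CTNNBL1 (2.81). SR protein kinases, which control SR proteins by phosphorylation, had a peak in 5 of 8, with DYRK1A (3.27) and CLK2 (2.68) as the strongest.

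The remaining lists held Sm and LSm proteins, and U1 and U2 snRNP proteins together with branch site proteins. The Sm and LSm proteins, which form the rings of the snRNPs and of decay complexes, had a peak in 3 of 15 genes (20%, interval 7.05% to 45.2%, which includes the 31.8% of all RefSeq protein-coding genes), the strongest in LSM1 (2.45) and SNRPD1 (1.89). The U1 and U2 snRNP and branch site proteins had a peak in 5 of 15 (33.3%, interval 15.2% to 58.3%), the strongest in SF1 (2.20) and U2AF2 (2.04). No difference between these lists and the background was tested.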

How the data were processed

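RNA of 4 SNU638 libraries was sequenced by the study. Per the labels, a RIP kit was used to recover the RNA, libraries were strand-specific, and the submitters' processing notes name STAR 2.7.3a and GRCh38. The peak caller is not given in the sources used here. The authors deposited 1 peak table with a signal value per 50 bp window, used here as a score of unstated scale, and a rank, which is a score used for nothing here. For significance, the authors deposited a p-value and a q-value with every window. The table has 0 columns of single libraries, so IP-YTHDF1 and input were not tested against each other.

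Of 26820 rows, 1 repeated row was dropped. Starts were converted to count from 1. Other deposited columns give window coordinates and gene names. Symbols were matched to RefSeq GRCh38.p14 (6370 of 6674 protein-coding symbols, 95.4%). Windows tested per gene were taken as the largest product of position in the order of p-values and q divided by p (p above 1e-14), a lower bound with 9 listed windows. The accuracy of this count was not tested on the deposited data. Distances are from window centres to RefSeq gene ends. Wilson intervals cover counting error only. Genes and windows are not replicates, and no p-value was computed.

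The members and lists were chosen with earlier results of these data known. Genes were named by a rule: in each family the 3 with the strongest window, the 3 with the most windows and the weakest, plus a fixed set of well-known genes. Other members are named where a family is described in full or a window is shared, and these were chosen after their values were seen. The values of 1 member are counted but not reported here by name. Software was matplotlib 3.10.9, pandas 2.3.3, SciPy 1.17.1 and NumPy 2.4.6 under Python 3.11.15. Alternatives were stricter limits on q, signal value or p, joined windows, no shared windows, the mean in place of the strongest window, and other motif settings.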

Additional observations from a re-analysis of the deposited data

How the results depend on the processing

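No paired analysis was possible because single libraries have no values of their own, and for the same reason no replicate could be left out. A q-value of at most 0.001 kept 38 members with 93 windows, a median strongest signal value of 2.24 and a family share of 39.6%. A signal value of at least 2 kept 35 members with 61 windows (median 2.26, share 35.4%). A Bonferroni limit over the 310017 windows counted in genes with a listed peak kept 23 members with 38 windows (median 2.51, share 24.0%). Windows of genes without a peak are not in that count. These changes follow from the stricter limits, and the shares of all RefSeq protein-coding genes under the same limits were 21.2%, 22.0% and 12.5%. The medians of all protein-coding genes under them were 2.42, 2.41 and 2.62, above those of the members, as 2.23 was above 2.14 without them. After same-strand windows shared with other genes were dropped, 49 members and 147 windows were left, and the median was 2.11 (2.19 for all protein-coding genes). The family share then fell from 54 of 96 genes to 48 of 96, next to 30.1% of all RefSeq protein-coding genes. With the mean over the windows of a gene in place of its strongest, the median was 1.86. Joining windows gave 124 regions. The share of windows in the first 10% of the gene was 50% for strongest windows alone and 52.7% without members that have 9 listed windows, against 46.2%. Extending readable windows by 25 bases on each side left 9 windows and put DRACH in 77.8% of them (62.2% of the extended windows of all protein-coding genes). Both the length and the set of readable windows changed, and their parts were not told apart.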

Other observations

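Some windows of the same gene had exactly equal values. In RBM33 the windows at 155644852 to 155644901 and at 155776452 to 155776501 on chromosome 7, at opposite ends of the gene, both had 1.84 as signal value and the same listed p-value. In SRSF6 the adjacent windows from 43458394 and from 43458444 on chromosome 20 both had 1.95 and again 1 common p-value. Over the members, 4 of 179 windows with a p-value above 0 shared both values with another window of their gene (2.23%), next to 5.25% of such windows over all protein-coding genes. The cause was not tested.

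In RBM38 the 2 windows farther from the start overlapped a listed window of the lncRNA gene AL109955.1 on the opposite strand, which had a signal value of 2.51 next to 2.25 and 2.15 in RBM38. The libraries were strand-specific per the labels.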
